A study of Glycine max with 6 samples.

Results

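The NAC genes Glyma08g47520 (GmNAC065), Glyma08g08010 (GmNAC057), Glyma17g00650 (GmNAC130) and Glyma10g20830, had a lower mean in drought-stressed than in well-watered soybean leaves and are described here. They are 4 of the 66184 genes on the array. They were chosen by that lower drought mean, so their difference between treatments is a description and carries no test. Glyma10g20830 is NAC-like, has no GmNAC number and is held by the study to be a truncated gene model. The plants were soybean (Glycine max) cv. Williams 82. The third trifoliate leaf from the shoot was taken at R2, the stage of full flowering, from 3 plants that were watered throughout (plants 1, 3 and 4) and from 3 plants left without water for 5 days from first flowering (plants 11, 12 and 13). Plants were grown with several to a pot, and the labels do not say which plants shared one. The spread between plants may thus be that within a pot, and pot and treatment cannot be told apart.

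NAC proteins are a large family of plant-specific transcription factors that share a DNA-binding domain at the amino-terminal end, while the rest of the protein varies and activates or represses transcription. Members of the family act in responses to water deficit and abscisic acid, in leaf senescence and in the formation of xylem. In Arabidopsis the family holds both promoters of senescence, such as NAP, and proteins that delay it, such as VNI2, to which GmNAC065 has been likened.

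Expression was given as log2 values relative to the median of each gene over the 6 arrays, so that 0 is the middle of a gene's own values and a difference of 1 is 2-fold. Levels of different genes cannot be set against each other on this scale, and leaf marker genes cannot be checked for presence. Where the groups do not overlap, centring also makes the 2 middle values of a gene mirror each other around 0. In a gene lower under drought these are the lowest well-watered and the highest drought value. In a gene higher under drought they are the highest well-watered and the lowest drought value. The array medians lay between −0.107 and 0.132 in well-watered and between −0.00459 and 0.0353 in drought leaves. With 3 arrays in each group the precision is limited. Over all probe sets 3065 genes were called lower under drought (4.63%) and 3295 higher (4.98%), which means that they differed by 2-fold or more and that their limma adjusted p was below 0.05. All 4 NAC genes described here were among those called lower, from which nothing is read since they were chosen on this comparison.

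GmNAC065, whose Arabidopsis relative VNI2 is a repressor that binds the vessel regulators named VND, had values of 0.99, 1.57 and 1.23 in well-watered plants 1, 3 and 4, and of −1.55, −1.33 and −0.99 in drought plants 11, 12 and 13. The 3 drought values all lay below the 3 well-watered values, with a gap of 1.98 between the groups, wider than the range within either group. The mean went from 1.26 (SD 0.29, n = 3) to −1.29 (SD 0.28, n = 3). This is a log2 fold change of −2.55 ± 0.21 (SE of the fit), or 5.85-fold lower under drought, the largest difference of the 4 genes and the fall ranked 221 among the 3065 genes called lower. In leaf tissue taken as a whole, less RNA per cell and fewer cells of the type that expresses a gene cannot be told apart.

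GmNAC057 differed almost as widely. Its values were 1.02, 1.03 and 1.75 in well-watered plants 1, 3 and 4, and −1.61, −1.17 and −1.02 in drought plants 11, 12 and 13. The groups did not overlap and were 2.03 apart, and well-watered plant 4 stood above the other well-watered plants. The mean went from 1.26 (SD 0.42, n = 3) to −1.27 (SD 0.31, n = 3), a log2 fold change of −2.53 ± 0.24 (SE), or 5.77-fold lower, with rank 227 among the falls. The residual spread of GmNAC057 was wider than that of 84.3% of all probe sets, against 65.0% for GmNAC065.

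Glyma10g20830 had values of 0.58, 1.02 and 1.05 in well-watered plants 1, 3 and 4, and of −1.42, −0.83 and −0.58 in drought plants 11, 12 and 13. The groups did not overlap and the gap between them was 1.16. The mean went from 0.88 (SD 0.26, n = 3) to −0.94 (SD 0.43, n = 3), a log2 fold change of −1.82 ± 0.24 (SE), or 3.54-fold lower, with rank 674. The drought plants differed more for this gene than for the other 3, and plant 11 was the lowest. Glyma10g20830 shared all 6 of its values with Glyma12g18980, an identifier numbered on another chromosome, so the signal cannot be assigned to either of them. Over the whole array 214 probe sets shared all their values with at least 1 other.

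GmNAC130 was nearest to the limit of 2-fold. Its values were 0.85, 0.76 and 0.28 in well-watered plants 1, 3 and 4, and −0.46, −0.57 and −0.28 in drought plants 11, 12 and 13. The groups did not overlap, but the gap of 0.557 was smaller than the range of 0.574 among the well-watered plants, in which plant 4 lay lowest. The mean went from 0.63 (SD 0.31, n = 3) to −0.44 (SD 0.15, n = 3), a log2 fold change of −1.07 ± 0.20 (SE), or 2.10-fold lower, with rank 2730. The difference was under 2-fold without well-watered plant 1, at a log2 fold change of −0.957, and when arrays were weighted by their quality in limma, at −0.82. Array weighting gave well-watered plant 4 a weight of 3.96, against 0.482 and 0.338 for plants 1 and 3, and plant 4 was the well-watered plant with the lowest GmNAC130 value. On the other side of the limit, GmNAC053 was nearest to it among the NAC genes examined here, taken from the lists of the study and the descriptions of chromosome 1, at a log2 fold change of −0.65.

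**Figure D1:**
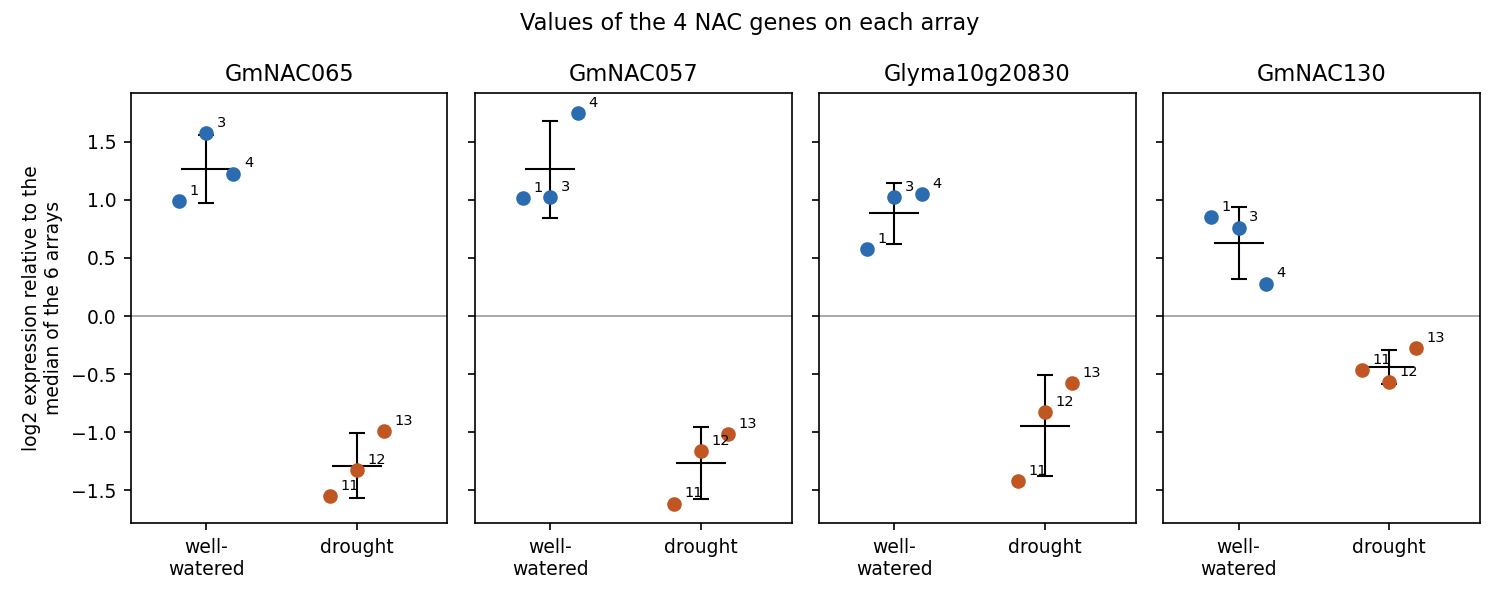
Log2 expression (vertical axis, relative to the median of the 6 arrays) of the 4 NAC genes on each array, with the plant number beside each point, well-watered plants in blue and drought plants in orange; long bars are group means and error bars are SD (n = 3 per group). The groups are 1.98 and 2.03 apart for GmNAC065 and GmNAC057, 1.16 for Glyma10g20830 and 0.557 for GmNAC130.

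In 17.4% of all probe sets the 3 drought values lay below the 3 well-watered values, and in 18.6% they lay above, so the lack of overlap in the 4 genes is read against that background and was fixed in part by their choice. Subtracting array medians, quantile normalization, array weights and leaving out each array in turn made 9 other settings. GmNAC065 ranged over them from −2.79 to −2.39, GmNAC057 from −2.88 to −2.29 and Glyma10g20830 from −2.01 to −1.59 in log2 fold change, so these 3 genes stayed more than 2-fold lower in all 9. GmNAC130 ranged from −1.24 to −0.82 and did so in 7 of the 9.

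**Figure D2:**
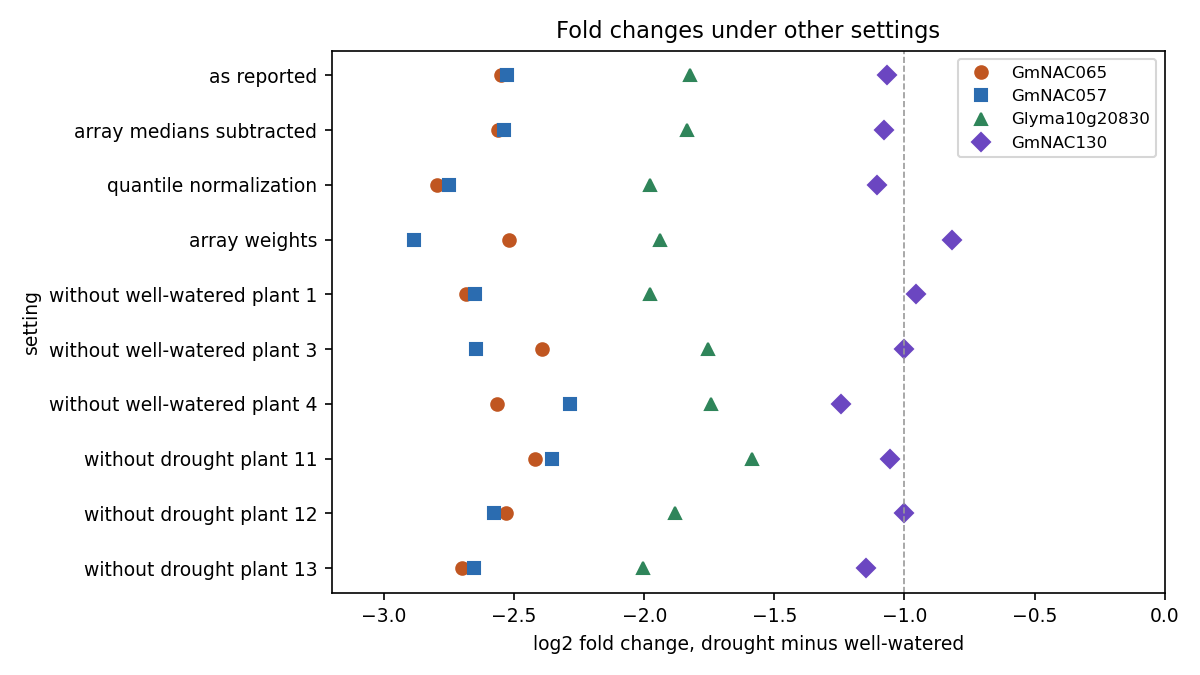
Log2 fold change (horizontal axis, drought minus well-watered) of the 4 NAC genes as reported and under 9 other settings (vertical axis), with the limit of 2-fold as a dashed line. GmNAC130 lies to the right of the limit with array weights (−0.82) and without well-watered plant 1 (−0.957), while the other 3 genes stay to its left throughout.

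The 4 genes differed among themselves in size. The log2 fold change of GmNAC065 and GmNAC057 differed by −0.02 ± 0.32 (SE over the arrays), which is within the error. GmNAC065 minus Glyma10g20830 gave −0.72 ± 0.15 and GmNAC065 minus GmNAC130 gave −1.48 ± 0.28. GmNAC057 minus Glyma10g20830 gave −0.70 ± 0.22, GmNAC057 minus GmNAC130 gave −1.46 ± 0.45, and Glyma10g20830 minus GmNAC130 gave −0.76 ± 0.38. By these estimates GmNAC065 and GmNAC057 lay together, Glyma10g20830 in the middle and GmNAC130 nearest to 0. The SE of the step from Glyma10g20830 to GmNAC130 is large beside the step itself. With so few arrays the order of these genes is thus not settled, and no test of the differences was made. The order of the estimates is that of the array signals, and the signal of Glyma10g20830 is shared with Glyma12g18980. For other genes the study's array and qRT-PCR fold changes differed by unequal amounts.

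Within the groups, the arrays that were high or low were partly the same for all 4 genes. Drought plant 13 had the highest drought value in all 4 genes. Among the 3065 genes called lower, this plant was the highest of the drought plants in 27.3%, against 39.6% for plant 11 and 33.1% for plant 12. Well-watered plant 1 was the lowest of its group for GmNAC065, GmNAC057 and Glyma10g20830, as it was in 38.9% of the genes called lower, and plant 4 was the lowest for GmNAC130.

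Once the group means were taken away, GmNAC065 and Glyma10g20830 deviated together over the 6 arrays (Pearson r = 0.850), and so did GmNAC057 and Glyma10g20830 (r = 0.737). GmNAC065 and GmNAC057 did so less (r = 0.325). GmNAC130 deviated against GmNAC057 (r = −0.619) and showed r = −0.149 with Glyma10g20830 and r = 0.186 with GmNAC065. The clearest case was well-watered plant 4, which deviated from its group mean by 0.48 for GmNAC057 and by −0.35 for GmNAC130. These correlations describe 6 arrays, which all genes share, and carry no p-value. The array medians were highest in well-watered plant 3 (0.132) and drought plant 13 (0.0353), and lowest in well-watered plant 1 (−0.107). GmNAC065 had the order of the medians among well-watered plants, while GmNAC057 and Glyma10g20830 were highest in plant 4. A shift shared by whole arrays was not tested, and how many other probe sets reach such an r was not counted. With the group means left in, r was between 0.863 and 0.984 for the 6 pairs, which the choice of genes that are all lower under drought largely sets.

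**Figure D3:**
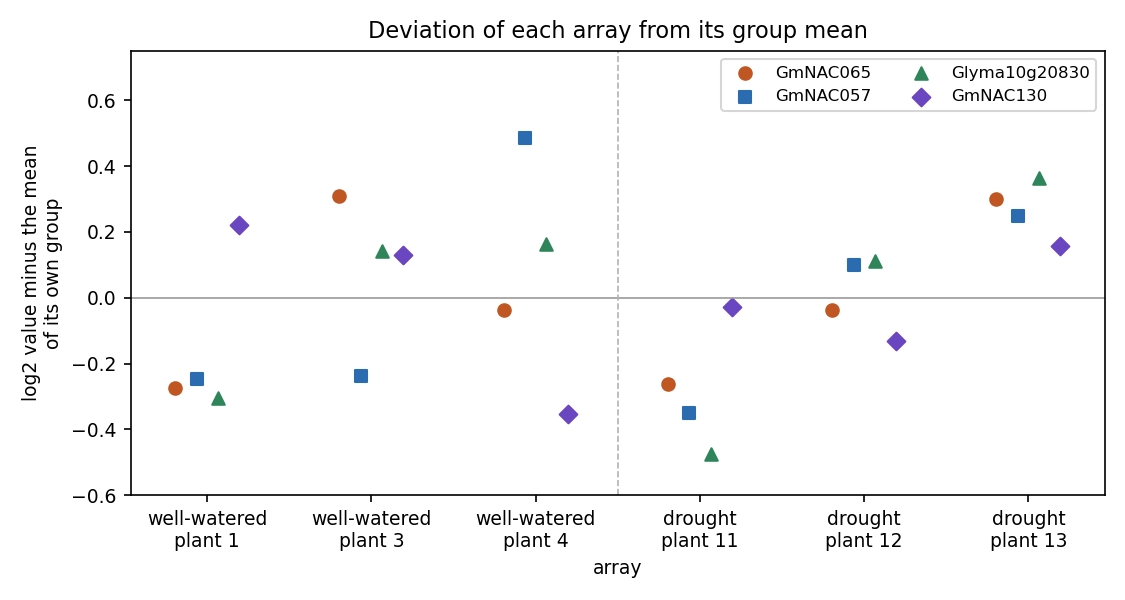
Log2 value of each of the 4 NAC genes minus the mean of its own treatment group (vertical axis) on each array (horizontal axis), with the dashed line between the treatments. All 4 genes lie above their group mean in drought plant 13, and GmNAC057 and GmNAC130 lie on opposite sides of it in well-watered plant 4.

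Other NAC genes with a name are given beside the 4. They are only a part of the family and most were listed by the study for a change under drought. They therefore do not show where the 4 stand among all NAC genes. The 23 NAC genes that the study listed as higher at R2 were chosen on these same arrays, and all 23 were called higher by that choice, with a median log2 fold change of 2.14. They ran from 1.04 for Glyma08g19300 (GmNAC062) to 4.74 for Glyma12g22880 (GmNAC085), which has been likened to the Arabidopsis senescence and abscisic acid regulator RD26. GmNAC085 had values of −1.999, −2.35 and −2.91 in well-watered plants 1, 3 and 4, and of 2.52, 2.43 and 1.999 in drought plants 11, 12 and 13. Its mirror pattern to GmNAC065 (r = −0.987 over the 6 arrays) follows in the main from how both were chosen. With group means taken away r was −0.519.

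The study also lists GmNAC057 and GmNAC130 as lower at V6, an earlier vegetative stage studied in other plants. GmNAC065 and Glyma10g20830 are not listed there. A further 9 NAC genes were listed at V6 and not at R2. They are thus genes that the study did not list as changed on these arrays, so that few calls and a median near 0 are largely set by how the list was made, and nothing is read from them. Of the 9, GmNAC053 and GmNAC082 are listed as lower at V6 and the others as higher. At R2 1 of the 9 was called higher, 0 were called lower and 8 were neither, and the median of their log2 fold changes was 0.05, against 0.02 over all probe sets. With the adjusted p alone and no fold limit, 1 of the 9 was lower and 2 were higher. The 1 called higher was Glyma11g07990 (GmNAC076), at 1.06 ± 0.21 (SE, limma adjusted p = 0.00519), and it fell short of 2-fold without well-watered plant 4 (0.93) or without drought plant 12 (0.94). Glyma06g11970 (GmNAC035) was higher by less than 2-fold, at 0.95 ± 0.16 (adjusted p = 0.00231). Its value without drought plant 11 was 1.01, past the limit.

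The 1 lower by the adjusted p alone was Glyma07g40140 (GmNAC053), at −0.65 ± 0.19 (adjusted p = 0.0348). Its values were 0.57, 0.48 and 0.08 in well-watered plants 1, 3 and 4, and −0.42, −0.32 and −0.08 in drought plants 11, 12 and 13. GmNAC053 followed GmNAC130 array by array (r = 0.979), also with group means taken away (r = 0.943), and both were lowest among well-watered plants in plant 4 and highest among drought plants in plant 13. An r at least as high was reached with GmNAC130 by 203 probe sets on the values and by 384 on the deviations. This pair was picked after its values were seen. Glyma06g16440 (GmNAC039), at −0.49 ± 0.17 (adjusted p = 0.0736), and Glyma12g09670 (GmNAC082), at −0.48 ± 0.33 (adjusted p = 0.390), did not pass the test. The remaining 4, Glyma06g14290 (GmNAC036), Glyma04g38560 (GmNAC018), Glyma08g41990 (GmNAC064) and Glyma04g40450 (GmNAC021), lay between −0.07 and 0.25 and were not called either.

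Gene descriptions were used here for chromosome 1 only, and 5 of its genes are described as NAC. Of the 5, 2 were called higher and 0 lower, where 4.98% of all probe sets were called higher and 4.63% lower, and their median log2 fold change was 0.84. The called genes were Glyma01g37310, similar to VND1, a regulator of xylem vessel formation in Arabidopsis, at 1.22 ± 0.23 (adjusted p = 0.00411), and Glyma01g06150, similar to NAP, a promoter of leaf senescence there, at 1.19 ± 0.27 (adjusted p = 0.0114). The VND1-like gene had values of −0.56, −0.35 and −1.17 in well-watered plants 1, 3 and 4, and of 0.47, 0.76 and 0.35 in drought plants 11, 12 and 13, and without well-watered plant 4 its log2 fold change was 0.98, under the limit. The NAP-like gene had −0.19, −0.66 and −0.67 against 0.19, 0.59 and 1.29, and without drought plant 13 its log2 fold change was 0.89. An ANAC008-like gene, Glyma01g22510, was higher by less than 2-fold (0.84 ± 0.16, adjusted p = 0.00499). An ANAC009-like gene, Glyma01g05680 (0.18 ± 0.18, adjusted p = 0.577), and an ANAC099-like gene, Glyma01g00880 (0.00 ± 0.24, adjusted p = 0.999), did not pass the test. The VND1-like gene and GmNAC065 had r = −0.888 over the arrays, which the difference between treatments sets, since with group means taken away r was 0.107.

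**Figure D4:**
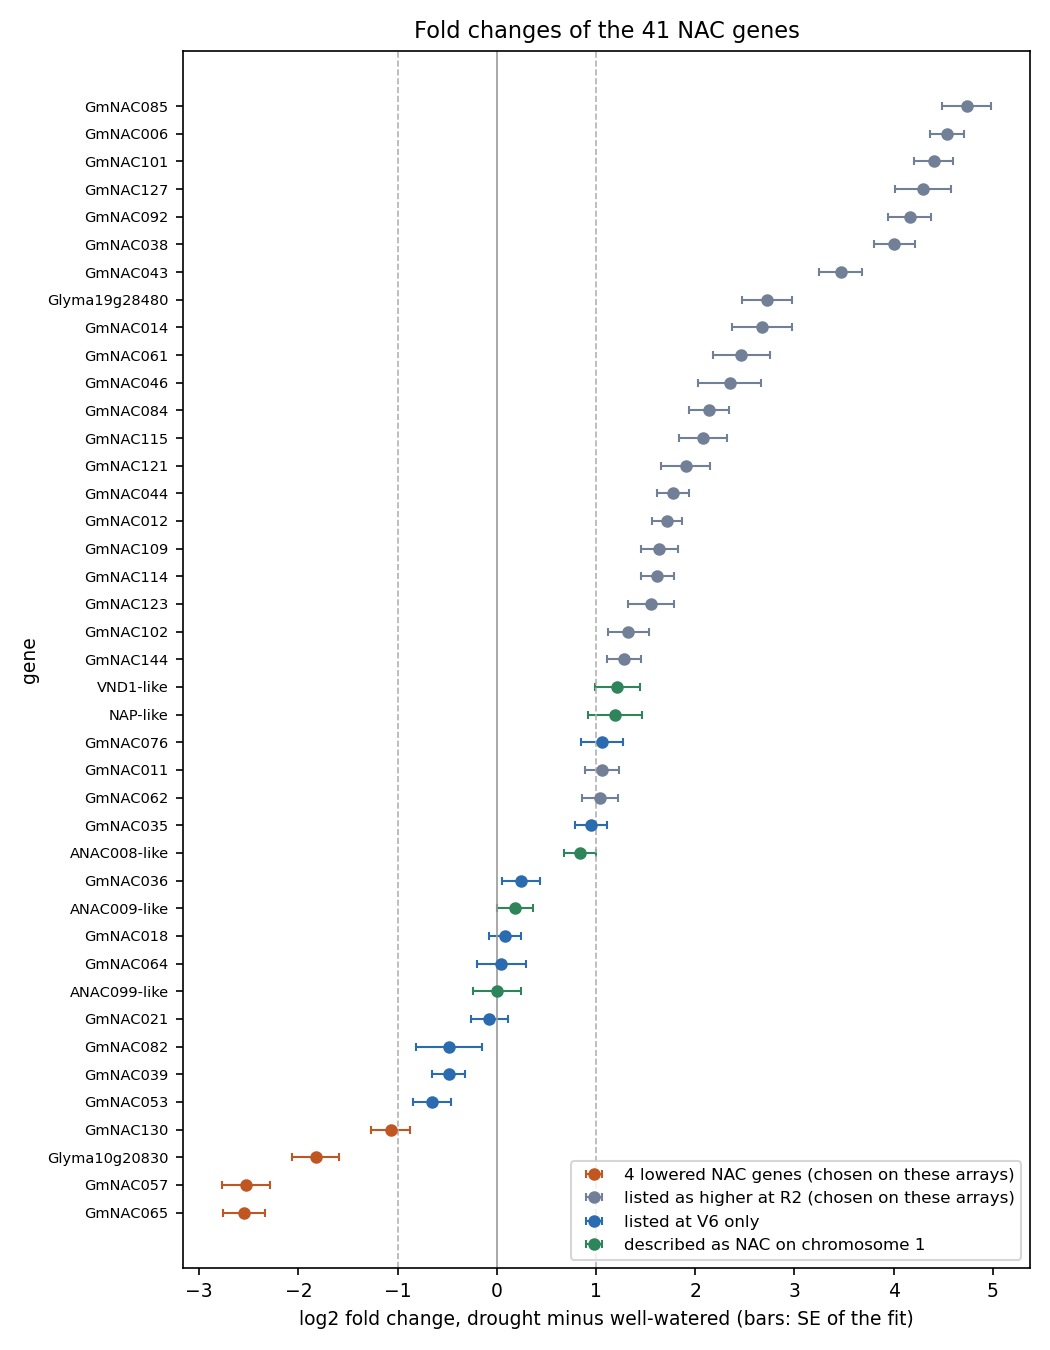
Log2 fold change (horizontal axis, drought minus well-watered, bars are the SE of the fit, 3 arrays per group) of NAC genes (vertical axis), with the limits of 2-fold as dashed lines. The 4 genes described here (orange) and the 23 listed as higher at R2 (grey) were chosen on these arrays, as were in part the 9 listed at V6 and not at R2 (blue); these 9 and the 5 described on chromosome 1 (green) lie between −0.65 and 1.22.

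Gene identifiers of this annotation run in order along each chromosome, so the identifiers next to a NAC gene are its neighbours. Among the 10 identifiers on each side of the 4 genes, 80 in all, 4 were called lower (5.0%) and 1 higher (1.25%), where 4.63% and 4.98% of all probe sets were. Of the 4 called lower, 2 lay beside GmNAC065, 1 beside Glyma10g20830, 1 beside GmNAC130 and 0 beside GmNAC057. The median log2 fold change of the neighbours was −0.14 for GmNAC065, −0.03 for GmNAC057, 0.10 for Glyma10g20830 and −0.12 for GmNAC130. The share called lower around the 4 genes was thus near that of the whole array.

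The identifier just after GmNAC065, Glyma08g47530, was one of those called lower. It had values of 0.46, 1.58 and 1.14 in well-watered plants 1, 3 and 4, and of −0.76, −0.46 and −0.54 in drought plants 11, 12 and 13, a log2 fold change of −1.65 ± 0.26 (adjusted p = 0.00149). Well-watered plant 3 was the highest and plant 1 the lowest of the well-watered plants for both this gene and GmNAC065. The array medians had the same order, at 0.132 in plant 3, −0.0311 in plant 4 and −0.107 in plant 1. In drought, plant 11 was the lowest for both genes, but plant 12 was the highest for Glyma08g47530 and plant 13 for GmNAC065. Beside GmNAC057, the identifiers 2 before, 1 after and 2 after it had log2 fold changes of −0.91 (adjusted p = 0.00275), −0.89 (adjusted p = 0.00304) and −0.97 (adjusted p = 0.0018), each under 2-fold. The identifier 3 before GmNAC057 went the other way, at 0.56 (adjusted p = 0.0289). By the adjusted p alone, 3 of the 20 neighbours of GmNAC057 were lower and 1 was higher. With the adjusted p alone, 10 of the 80 neighbours were lower and 6 higher, where 9.95% of all probe sets were lower and 9.96% higher. The 1 neighbour called higher, Glyma10g20890 beside Glyma10g20830, stood at 1.28 ± 0.40 (adjusted p = 0.0459), and had a value of 1.91 in drought plant 13. When any array but drought plant 11 was left out, 0 of the 80 neighbours were called higher.

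**Figure D5:**
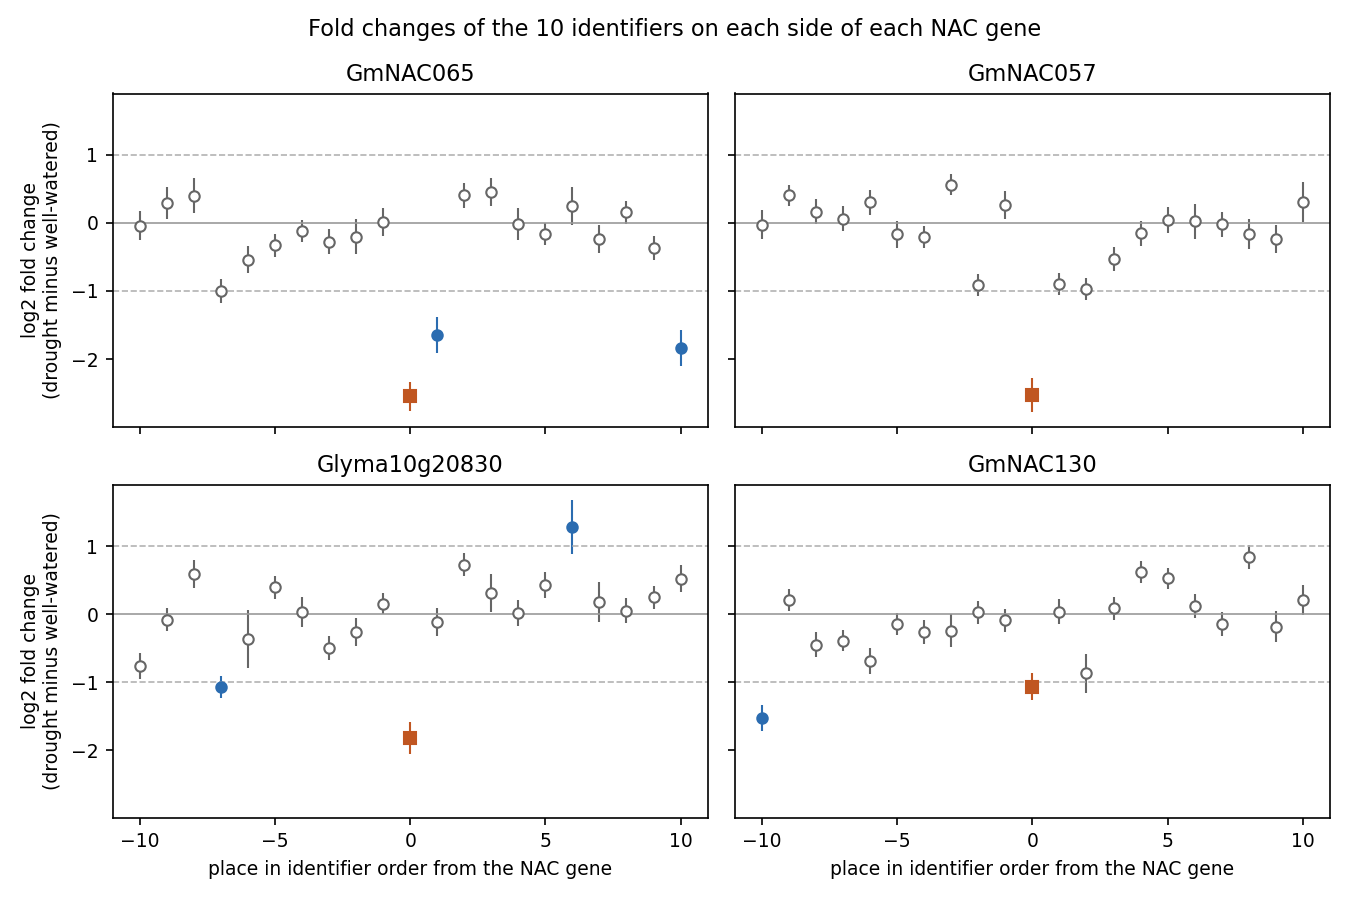
Log2 fold change (vertical axis, drought minus well-watered, bars are the SE of the fit) of each NAC gene (orange square) and the 10 identifiers on each side, by place in identifier order (horizontal axis), with the limits of 2-fold as dashed lines; filled blue circles were called and open circles were not. The place just after GmNAC065 holds a gene at −1.65, and 3 open circles close to GmNAC057 lie between −0.97 and −0.89. The open circle 3 places before GmNAC057 lies at 0.56.

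Genes whose 6 array values ran most like those of each NAC gene were sought among 1725 genes with a name, which are genes of the study's hormone and NAC lists and the described genes of chromosome 1. With GmNAC065 the highest r were 0.997 for Glyma01g15930, a UNE10-like basic helix-loop-helix transcription factor, 0.996 for Glyma01g05150, a SOUL heme-binding protein, and 0.993 for Glyma09g00490, similar to the ethylene receptor ETR1. Their own log2 fold changes were −1.95, −0.93 and −0.70, all smaller than that of GmNAC065. The lowest r was −0.992 for Glyma19g27260, similar to a GRAM domain protein described as related to abscisic acid-responsive proteins. The log2 fold change of Glyma19g27260 was 1.95.

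With GmNAC057 the highest r were 0.992 for Glyma01g42100, a leucine-rich repeat kinase, 0.990 for Glyma12g32910, similar to the GH3 protein DFL2, and 0.988 for Glyma07g06370, similar to JAR1, the enzyme that joins jasmonate to isoleucine. Glyma10g20830 shared the JAR1-like gene with it (r = 0.988) and also ran like Glyma01g44200, similar to DET1, a repressor of light development (r = 0.991), and Glyma01g21270, a choline transporter-related gene (r = 0.987). The log2 fold change of the JAR1-like gene was only −0.52, since r compares the pattern over the arrays and takes no account of size. The lowest r with GmNAC057 was −0.997 for Glyma01g40160, weakly similar to a BTB/POZ protein. With Glyma10g20830 the lowest r was −0.982 for Glyma01g39950, similar to the casein kinase subunit CKA1.

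With GmNAC130 the highest r was 0.994 for Glyma01g05100, weakly similar to IQD29. Next was 0.991 for Glyma01g17820, weakly similar to a family of protease inhibitor, seed storage and lipid transfer proteins. Then came 0.990 for Glyma01g06030, similar to EXPA15, an expansin, of the class of proteins that loosen cell walls. The lowest was −0.986 for Glyma01g02670, similar to the glycosyltransferase UGT85A2, which was at a log2 fold change of 2.18. None of the genes named for GmNAC130 was among those named for the other 3, from which nothing is read, since so few are named for each. High values of r were common on these arrays, since 2343 of the other probe sets had r above 0.95 with GmNAC065, 1515 with GmNAC057, 1242 with Glyma10g20830 and 1181 with GmNAC130. The genes with the highest r are therefore given as a description of 6 arrays that differ mainly by treatment.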

How the data were processed

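Total RNA from the leaves of 6 plants was hybridised to Affymetrix Soybean Gene 1.0 ST arrays, 1 plant per array. Probes were summarised per gene by the authors with RMA in Affymetrix Expression Console (versions not given in the sources used here) without normalization, and each array was scaled to its 75th percentile in GeneSpring. The deposited log2 values were also centred, probe set by probe set, on the median of the 6 arrays, as the values themselves show. They therefore give differences between arrays but no absolute level, and no probe set can be called dim. A second deposited table holds the authors' own comparison of the treatments (fold changes and p-values), and of it the gene identifiers alone were used.

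Groups were taken from the labels. All 66184 probe sets were fitted in R 4.3.3 by limma 3.58.1, using lmFit and then eBayes with a single treatment term, and p-values were adjusted over all of them by Benjamini-Hochberg. The fit was also run on simulated data with known changes and independent noise. Those data had no shared array effects and no centring, so the run checks the calculation and not the calls made here. By the study's criteria, genes differing 2-fold or more with an adjusted p below 0.05 were called. No test was made for the 4 NAC genes described, which were chosen on the same comparison. The members and the gene lists were chosen with earlier results of these data known.

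The genes named are the 4 members, any probe set sharing all 6 values with a member, all NAC genes listed at V6 only or described on chromosome 1, the NAC genes with the largest and the smallest rise among those listed at R2, and, for each member, the 3 genes with the highest and the 1 with the lowest Pearson r. At most 2 identifiers without a name are printed in each direction. Alternatives were subtracting array medians, quantile normalization, the methods' t-test, array weights, other neighbour windows, dropping the fold criterion and leaving out each array. Of the array identifiers 0 were found among the 59048 RefSeq genes of assembly Glycine_max_v4.0, and 1 of 3 GmNAC names did as a synonym, so no coordinates are given.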

Additional observations from a re-analysis of the deposited data

How the results depend on the processing

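With 3 arrays in each group the values of single plants decide calls near the 2-fold limit. Leaving out each array in turn gave log2 fold changes of −2.70 to −2.39 for GmNAC065, −2.65 to −2.29 for GmNAC057, −2.01 to −1.59 for Glyma10g20830 and −1.24 to −0.957 for GmNAC130, and array weights moved GmNAC130 to −0.82. Over the same leave-outs 0 to 2 of the 9 NAC genes listed at V6 only were called higher, as were 1 to 2 of the 5 on chromosome 1 and 0 to 1 of the 80 neighbours, while 4 to 6 of the neighbours were called lower. By the methods' t-test 0 NAC genes on chromosome 1 and 0 neighbours were called higher, as were 0 of those listed at V6 only, which their choice fixed, and 2041 probe sets were called lower in all, against 3065 with limma. With no fold criterion 1 NAC gene listed at V6 only was lower and 2 were higher, 10 neighbours were lower and 6 higher, and of all probe sets 6583 were lower and 6589 higher. A window of 5 identifiers on each side held 1 neighbour called lower and 0 higher of 40, and one of 20 held 9 and 4 of 160, which follows from the number of genes in the window. After quantile normalization r between GmNAC065 and the ETR1-like Glyma09g00490 was 0.941. Apart from these, and from the changes given beside GmNAC035, GmNAC076 and the VND1-like and NAP-like genes, the other values kept their side of the criteria. The direction held as well, except in GmNAC021, GmNAC064 and the ANAC099-like gene, which were not called in any setting. Their log2 fold changes near 0 changed sign. GmNAC021 went to 0.04 and GmNAC064 to −0.11 without drought plant 13, and to 0.008 and −0.16 without well-watered plant 4. The ANAC099-like gene went to −0.28 without well-watered plant 3, and was below 0 in other settings too, among them array weights (−0.25). Causes were not tested, except that dropping the fold limit and changing the window alter counts by construction. A filter on dim probe sets and a variance trend were not run, since centring removed the levels they need, and signal over background is not known. No paired analysis was possible because the groups share no plant number.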
